A study of Homo sapiens with 3 samples.

Results

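TERT encodes the catalytic subunit of telomerase, the reverse transcriptase that adds telomere repeats to chromosome ends using the RNA TERC as its template. The gene is silent in most adult somatic cells and is active in stem cells and in the great majority of cancers, hepatocellular carcinoma included. Its promoter lies in a CpG island, lacks a TATA box, and holds GC boxes bound by SP1 and E-boxes bound by MYC and its partners. In many TERT-expressing cancers, methylation has been described upstream of the proximal promoter while the stretch next to the start stays unmethylated. CpG methylation of active genes is commonly high along the body of the gene, away from the promoter.

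Methylation of CpGs at and around TERT was examined in Hep3B, an established human hepatocellular carcinoma cell line, as parental cells (1 library) and as 2 SOX4 knockout lines of the same cells (SOX4-/- #1 and #2, 1 library each, named line 1 and line 2 here). SOX4 is a transcription factor with a high-mobility-group DNA-binding domain. The knockout lines were made earlier with CRISPR/Cas9, and all libraries came from genomic DNA enriched with a capture probe set for CpGs and then treated with bisulfite, which leaves methylated cytosines as C and turns unmethylated ones into a base read as T. Neither the edited SOX4 sequence nor SOX4 protein was checked here, and whether each line is 1 clone was not stated. The series is labelled as liver cancer cells, and the labels name no drug or time course. The study cultured its SOX4 knockout cells with puromycin and does not state this for parental cells. Any effect of that drug cannot be told apart from the knockout here. No expression data enter here, so TERT transcript levels were not analysed.

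The region was chromosome 5 from 1253000 to 1300000 (GRCh37), with the TERT start at 1295162 on the complementary strand, so that bases above 1295162 are upstream of the gene and bases below it are within it. A CpG was taken where all 3 libraries had at least 5 reads in CpG context after the strands were summed, and it is named by the forward-strand position of its G. This left 723 TERT CpGs of 811 read in any library, among 2744301 CpGs in the whole series. The core promoter (1295000 to 1295300, which is 138 bases before the start to 162 after it) held 5, the upstream region (1295300 to 1296500) held 62, the gene body held 636, and the remaining 20 lay beyond the upstream region, up to 1300000. Exons and introns were not assigned, since no annotation of this build was used.

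CpG reads numbered 104702738 in parental cells, 96987706 in line 1 and 133170621 in line 2. At the TERT CpGs the median depth was 32, 28 and 41 reads in that order. TERT took nearly the same share of each library: relative to parental cells its share of reads was 0.977 in line 1 and 0.988 in line 2. Between 86.7% and 87.0% of CpG reads in each library came from the complementary strand, and in the core promoter and upstream region all of them did. Since each of these lines has 1 library, every interval below covers counting error only, and because PCR copies are not independent molecules and neighbouring CpGs share fragments, the intervals are too narrow.

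The reads nearest to the start fell on the promoter stretch printed here, which shows where the readable CpGs lie and how they cluster. The sequence is the RefSeq promoter of TERT (GRCh38.p14, complementary strand, 5′ to 3′ toward the gene), placed at chr5:1295257-1295433 in GRCh37 by the spacing of its CpGs. Capitals mark the 20 CpGs with enough reads in all libraries.
TERT promoter: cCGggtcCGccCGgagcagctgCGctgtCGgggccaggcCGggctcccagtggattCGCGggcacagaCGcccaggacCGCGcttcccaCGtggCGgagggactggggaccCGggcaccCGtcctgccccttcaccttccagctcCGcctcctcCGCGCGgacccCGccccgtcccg
Of the 36 CpGs in the whole RefSeq promoter, 22 were read in any library and 14, all nearer to the start, were read in none. No CpG passed the read minimum between 1294805, which is 357 bases after the start, and 1295268, which is 106 bases before it. The start itself therefore sat in an interval of 463 bases for which no methylation level can be given here.

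The CpGs of the core promoter that could be measured were almost free of methylation in all libraries. They lay together between 1295268 and 1295288, which is 106 to 126 bases before the start, and do not represent the rest of the core promoter. In parental cells 1 of 102 reads was methylated (0.980%, exact Clopper-Pearson 95% interval 0.0248 to 5.34%). In line 1 the count was 0 of 30 reads, which allows a share of up to 10% by the limit of 3 reads over the total and up to 11.6% by the exact interval. In line 2 it was 0 of 115 reads, which allows up to 2.61% and 3.16% by the same measures. Averaged over CpGs, the level was 0.870% in parental cells and 0% in both knockout lines. The single methylated read fell on the CpG at 1295288, with 1 of 23 reads in parental cells, 0 of 10 in line 1 and 0 of 29 in line 2. At 1295268, the nearest measured CpG upstream of the start, the counts were 0 of 17, 0 of 5 and 0 of 20. A difference between the libraries in the core promoter was not detectable at this depth, and line 1, with 5 to 10 reads per CpG, was the weakest of the 3.

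The upstream region carried partial methylation in every library. Its mean level was 20.9% ± 14.1 (SD over 62 CpGs) in parental cells, 12.4% ± 13.7 in line 1 and 17.1% ± 14.1 in line 2. By pooled reads the levels were 21.2% (371 of 1746 reads, 95% interval 19.4 to 23.2%), 11.7% (171 of 1462 reads, 10.1 to 13.5%) and 17.3% (354 of 2048 reads, 15.7 to 19.0%). These counting intervals did not overlap between the libraries, with parental cells highest and line 1 lowest. No CpG of the region reached 80% in any library, and the highest single levels were 54.5%, 50% and 60%. Unmethylated CpGs were more numerous in line 1, where 19 of 62 had no methylated read, against 8 in parental cells and 6 in line 2.

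**Figure D1:**
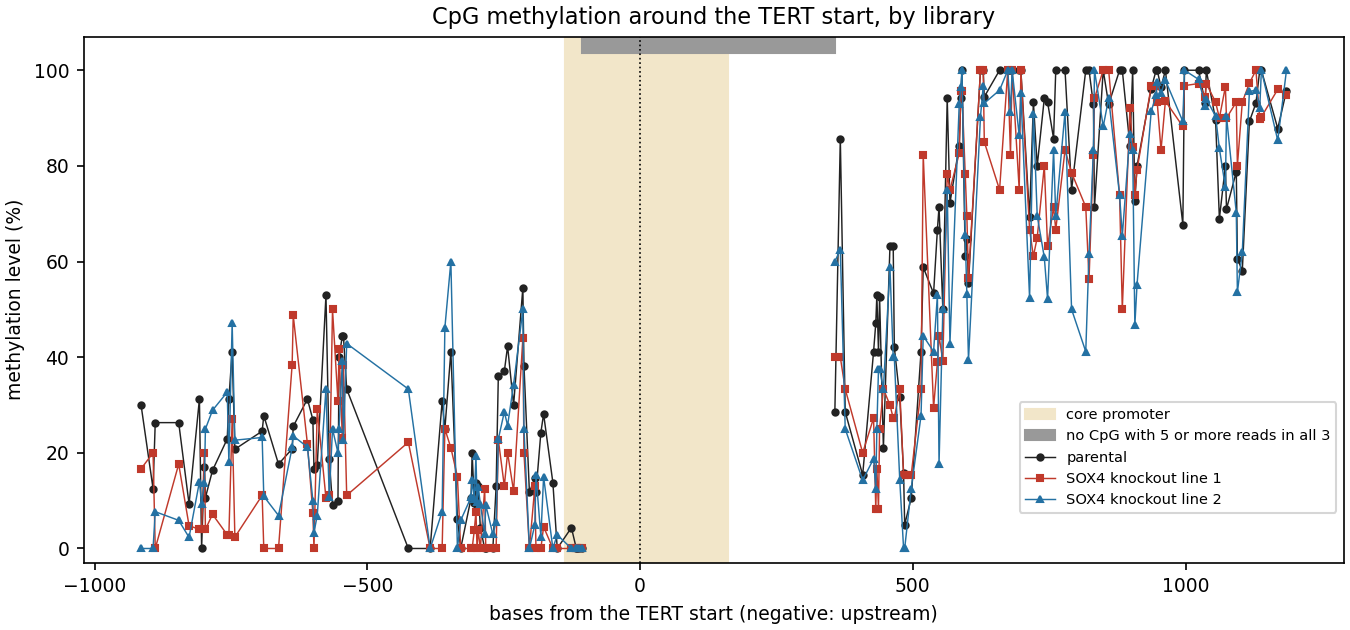
Methylation level in percent (y axis) of each CpG against its distance from the TERT start in bases (x axis, negative upstream), with 1 point per CpG, joined within each library. The shaded band is the core promoter and the grey bar the 463 bases with no CpG above the read minimum. Levels are at or near 0 between 106 and 126 bases upstream, at most 60% farther upstream, and mostly above 50% beyond 600 bases into the gene.

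Within the upstream region the level was uneven. The 6 CpGs closest to the core promoter, from 152 to 193 bases before the start, averaged 15.4% in parental cells, 2.93% in line 1 and 6.79% in line 2. From 203 to 299 bases the 14 CpGs averaged 20.7%, 10.6% and 17.1%. From 538 to 598 bases the 10 CpGs averaged 28.7%, 24.6% and 22.9%, the highest of the upstream bins of more than 1 CpG in parental cells and line 1. Farther out the libraries parted: at 743 to 799 bases the 7 CpGs averaged 22.9% in parental cells, 9.46% in line 1 and 26.9% in line 2. At 804 to 893 bases the 6 CpGs averaged 17.6%, 8.40% and 6.53%. Line 1 was the lowest of the libraries in the first of these outer bins and line 2 in the second.

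Within the upstream region, parental methylation was above 50% at 2 CpGs, each between neighbours below that level. At 1295377, 215 bases upstream, 18 of 33 parental reads (54.5%), 11 of 25 reads of line 1 (44.0%) and 18 of 36 reads of line 2 (50%) were methylated. This CpG, the first of the leftmost CGCG pair of the printed sequence, was high in all libraries. At 1295738, 576 bases upstream, the counts were 9 of 17 (52.9%), 2 of 19 (10.5%) and 9 of 27 (33.3%). There the libraries were spread more widely, with line 1 lowest, and the difference from parental cells was not called (adjusted p = 0.147, Fisher's exact test).

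Motif letters in the promoter held CpGs with low to moderate methylation. The E-box CACGTG, searched on both strands, occurred once and is found in 7.26% of the 35116 RefSeq promoter sequences of this length. Its CpG, at 1295344 (182 bases upstream), was methylated in 8 of 33 parental reads (24.2%), 0 of 22 reads of line 1 and 1 of 40 reads of line 2 (2.50%). Both knockout lines were below parental cells there, but neither difference passed the test (adjusted p = 0.206 and 0.318, Fisher's exact test). The GC box GGGCGG, searched on both strands, occurred 3 times and is found in 45.0% of promoters. The CpG of the farthest GC box, at 1295426, had 3 of 23 parental reads methylated (13.0%), 0 of 22 in line 1 and 2 of 36 in line 2 (5.56%). No fall could be called at that CpG either. The second GC box holds the CpG at 1295268, which had no methylated read in any library, and the CpG of the third, at 1295187, was not read. Over all 20 CpGs of the printed stretch the mean level was 18.0% in parental cells, 7.47% in line 1 and 11.8% in line 2.

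To compare single CpGs between libraries, methylated and unmethylated reads were set against each other with Fisher's exact test (2-sided), adjusted by Benjamini-Hochberg over all CpGs of the series. Calls needed an adjusted p under 0.05 and a gap of 25 percentage points or more. With 1 parental library these calls compare DNA samples and not genotypes. In line 1, 6 TERT CpGs were called higher than parental and 37 lower, which is 0.830% and 5.12% of the 723. Over the whole series, 0.484% were called higher and 3.65% lower in that comparison. In line 2, 1 was called higher (0.138%) and 5 lower (0.692%), against 0.0628% and 0.54% over the series. Between the knockout lines, 3 were higher in line 1 (0.415%) and 7 lower (0.968%), against 0.141% and 0.831%. The shares called lower at TERT were thus within 1.5 times those of the series in each comparison, and the shares called higher rest on 6, 1 and 3 CpGs.

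In the core promoter and upstream region, 2 CpGs fell in line 1 and none was called in line 2 or between the lines. The 2 CpGs are 3.23% of the 62 upstream, close to the 3.65% called lower over the series in that comparison. A fall from parental cells could be called only where the parental level was at least 25%. The parental median was 19.4% over the upstream CpGs, and no core CpG exceeded 4.35% in parental cells. Most CpGs of these regions could thus not be called lower, whatever the knockout lines held. At 1295852, 690 bases upstream, methylated reads numbered 15 of 54 in parental cells (27.8%), 0 of 44 in line 1 and 6 of 55 in line 2 (10.9%). The fall passed the test in line 1 (adjusted p = 0.00331, Fisher's exact test) and line 2 did not pass (adjusted p = 0.595). With every CpG thinned to its smallest depth of the 3 libraries, this difference was -20.5 points in line 1 and the call was lost. At 1295916, 754 bases upstream, the counts were 15 of 48 (31.2%), 1 of 36 (2.78%) and 9 of 50 (18.0%). Line 1 again passed (adjusted p = 0.0191, Fisher's exact test), though not at a limit of 0.01, and line 2 did not (adjusted p = 1). Line 2 lay between the other libraries at both sites, and the lines were not called different at either (adjusted p = 0.553 and 0.62, Fisher's exact test). At an unadjusted p under 0.05, 12 upstream CpGs were lower and 2 higher in line 1, and 5 were lower and 1 higher in line 2. These are 19.4% and 3.23% of the 62 in line 1 and 8.06% and 1.61% in line 2. All CpGs of the series, not matched in level, gave 9.37% lower and 1.90% higher in line 1. In line 2 they gave 5.22% and 1.46%.

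Ranked by the smaller of the changes of both lines, the upstream CpG with the largest rise in value was 1295726, 564 bases upstream. It had 1 of 11 parental reads methylated (9.09%), 8 of 16 in line 1 (50%) and 7 of 28 in line 2 (25%), and neither line passed the test (adjusted p = 0.394 and 1, Fisher's exact test). The largest drop in value by the same ranking was at 1295525, 363 bases upstream, with 4 of 13 (30.8%), 0 of 15 and 1 of 13 (7.69%), where again neither passed (adjusted p = 0.350 and 1, Fisher's exact test). Depth limits both sites, which had 11 to 28 and 13 to 15 reads.

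Across the upstream region, more CpGs were lower than higher in each knockout line. In line 1, 44 of 62 CpGs were below parental, 12 above and 6 equal, with a median difference of -9.95 percentage points. In line 2, 36 were below, 25 above and 1 equal, with a median of -4.93. Over all CpGs of the series the median difference was 0 in both lines, with 40.7% below and 24.2% above parental in line 1 and 39.5% and 27.5% in line 2. The mean difference over the series was -4.08 points in line 1 and -2.14 in line 2, set against -8.53 and -3.80 in the TERT upstream region. The series was not matched to this region in level, and CpGs without methylation in parental cells cannot fall. In line 1, 962210 of the 2744301 series CpGs equalled parental cells, against 6 of the 62 here. Whether the region differs from CpGs of like level was not tested. Line 1 minus line 2 was -4.73 points in this region, a wider gap than that of line 2 from parental cells. The mean of the knockout lines was 14.7% ± 3.35 (SD, n = 2), a difference of -6.17 points from the single parental library.

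**Figure D2:**
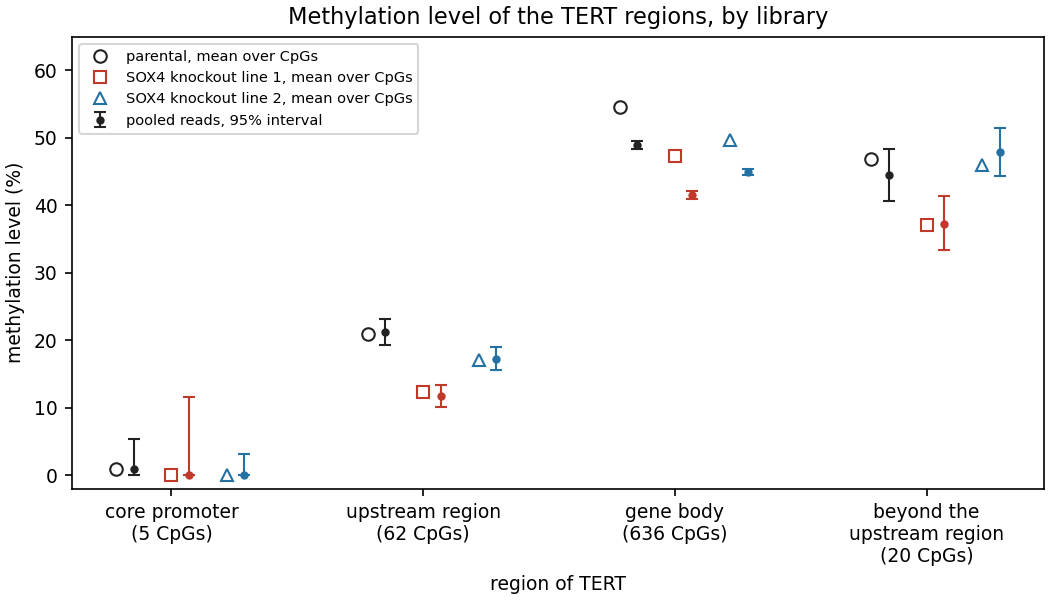
Methylation level in percent (y axis) of each TERT region (x axis) in each library, with open symbols for the mean over CpGs and filled points for pooled reads with exact 95% counting intervals. The core promoter is near 0, the upstream region lies between 11.7 and 21.2% and the gene body between 41.6 and 54.5%, and parental cells are highest in the upstream region and the body.

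On the other side of the start the level climbed over a short distance. The nearest measured CpG in the gene, at 1294805 (357 bases after the start), had 2 of 7 parental reads methylated, 2 of 5 in line 1 and 3 of 5 in line 2, too few to order the libraries. From 408 to 497 bases after the start the 14 CpGs averaged 35.9% in parental cells, 21.6% in line 1 and 24.6% in line 2. From 515 to 599 bases the 13 CpGs averaged 70.1%, 64.8% and 58.5%. Between 602 and 1185 bases the means of 100-base bins ran from 82.5 to 95% in parental cells, while line 1 ran from 70.7 to 94.5% and line 2 from 68.9 to 90.1%. Coming from 1185 bases inside the gene toward the start, single parental CpGs first dropped under 50% between 1294643 (58.8%, 519 bases after the start) and 1294647 (41.2%, 515 bases), with single CpGs on either side of 50% between 357 and 466 bases. The near-unmethylated stretch at the core promoter was thus flanked by partial methylation upstream and by high methylation starting about 600 bases into the gene.

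The order of the regions was the same in each library, while the step from core promoter to upstream region was smallest in line 1. The upstream region exceeded the core promoter by 20.04 points in parental cells, 12.4 in line 1 and 17.1 in line 2. Upstream minus gene body was -33.6 points in parental cells, -35.0 in line 1 and -32.6 in line 2. Counting intervals of the core promoter and the upstream region did not overlap in parental cells or line 2. In line 1 they did, since 0 of 30 core reads allow up to 11.6% by the exact interval and the upstream interval began at 10.1%.

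The gene body was intermediate to high in methylation and varied widely between its CpGs. The mean was 54.5% (SD 27.9 over 636 CpGs) in parental cells, 47.4% (SD 29.3) in line 1 and 49.7% (SD 26.5) in line 2. Pooled over reads, the levels were lower at 48.9%, 41.6% and 45.0%, since deeply read CpGs were less methylated than the average one. Between 10 and 80% methylation lay 463 CpGs in parental cells, 478 in line 1 and 500 in line 2, and 153, 122 and 122 lay above 80%. Against parental cells, 409 CpGs were lower and 201 higher in line 1 (median difference -6.25 points), and 412 were lower and 205 higher in line 2 (median -4.48). The mean of the knockout lines was 48.6% ± 1.66 (SD, n = 2), a difference of -5.96 points from parental cells, while line 1 minus line 2 was -2.35 points.

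**Figure D3:**
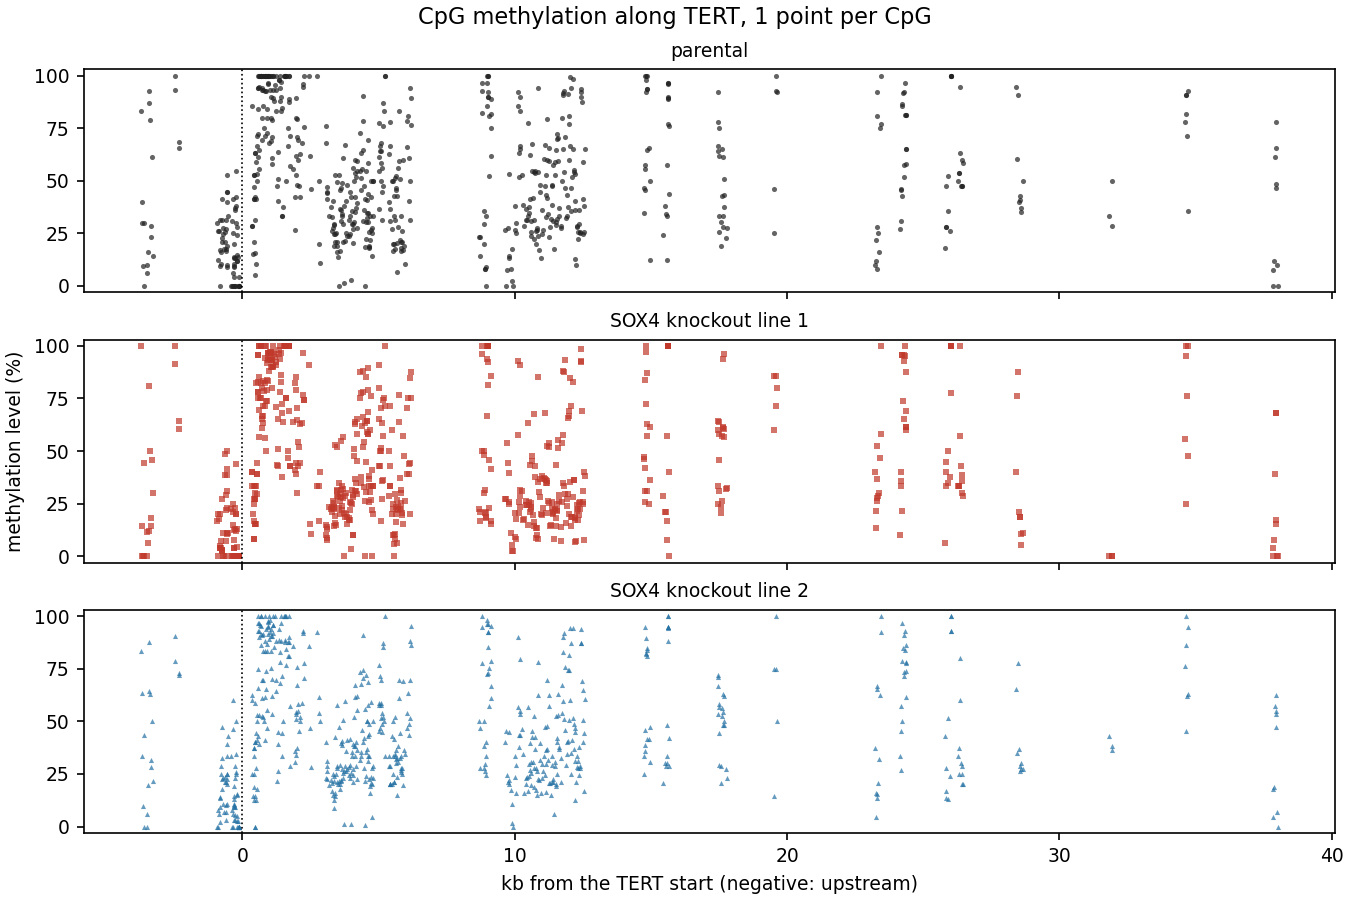
Methylation level in percent (y axis) of all 723 TERT CpGs against the distance from the start in kilobases (x axis, negative upstream, dotted line at the start), 1 panel per library and 1 point per CpG. In each panel the level is low just upstream of the start, high in the first 2 kilobases of the gene, and spread between 0 and 100% farther along the body.

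Captured CpGs of the body lay in separate stretches. Joined where CpGs were at most 200 bases apart, 15 stretches of 5 or more CpGs held 633 of the 636. Their mean level ran from 32.9 to 77.3% in parental cells. Line 1 spanned 22.0 to 76.6% and line 2 spanned 32.4 to 75.4%. Line 1 was below parental in 12 of the 15 and line 2 in 12, with differences from -22.6 to 5.31 points and from -21.7 to 4.95 points. The stretch next to the start (1292627 to 1294805, 142 CpGs) averaged 75.8%, 70.1% and 67.8%. The stretch from 1288983 to 1292403 (185 CpGs) averaged 41.8%, 37.6% and 38.8%. The stretch from 1282584 to 1285499 (145 CpGs) averaged 46.4%, 33.1% and 40.0%. It held 19 of the 37 CpGs that fell in line 1 and all 5 that fell in line 2, among its 145 CpGs. Its median depths were 82, 76 and 100 reads, against 32, 28 and 41 over all TERT CpGs. Falls in line 1 were also called at 4 of the 16 CpGs from 1280176 to 1280428 and at 8 of the 185 from 1288983 to 1292403. Over the series, 3.65% were called lower in line 1 and 0.54% in line 2. Mean falls were larger from 1266514 to 1266771 (-22.6 and -15.3 points) and from 1268701 to 1268871 (-14.3 and -21.7). Those stretches held no called CpG, at median depths of 8 to 40 reads. Whether depth set where calls fell was not tested.

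The calls that follow were picked after their values were seen. Of the 5 CpGs that fell in line 2, 4 stood in a stretch of 9 CpGs from 1283609 to 1283738, which is 11424 to 11553 bases after the start, read 113 to 235 times each. Their mean was 50.3% in parental cells, 21.8% in line 1 and 29.2% in line 2. At 1283609, 104 of 144 parental reads were methylated (72.2%), 38 of 152 in line 1 (25%) and 95 of 225 in line 2 (42.2%). This CpG fell in line 1 (adjusted p = 2.22e-13, Fisher's exact test) and in line 2 (adjusted p = 2.78e-05). The CpG 7 bases away, at 1283616, fell likewise, with 70.0%, 21.9% and 40.2% (adjusted p = 2.09e-14 and 1.88e-05, Fisher's exact test). At 1283670 the levels were 59.0%, 22.5% and 30.9% (adjusted p = 4.34e-08 and 0.000142), and at 1283738 they were 57.3%, 21.1% and 22.7% (adjusted p = 2.98e-06 and 6.36e-06, Fisher's exact test). The neighbours at 1283644 and 1283716 were already low in parental cells, at 29.1% and 17.6%, and were not called in either line. The fifth CpG that fell in line 2 was 1285028, with 35 of 38 parental reads methylated (92.1%), 23 of 40 in line 1 (57.5%) and 38 of 67 in line 2 (56.7%), where both lines passed the test (adjusted p = 0.016 and 0.0223, Fisher's exact test). Its calls were lost in both lines at an adjusted p limit of 0.01 and with reads of the complementary strand only (-20.9 points in line 1, -34.6 in line 2), and in line 1 also after thinning. With the complementary strand only, the line 2 differences at 1283616 and 1283670 were -24.8 and -24.5 points, just under the required size.

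Rises were fewer and the largest stood together. At 1277508, which is 17654 bases after the start, 37 of 132 parental reads (28.0%), 104 of 111 reads of line 1 (93.7%) and 63 of 116 reads of line 2 (54.3%) were methylated. It rose in line 1 (adjusted p = 3.33e-24, Fisher's exact test) and in line 2 (adjusted p = 0.00832), and the lines also differed from each other (adjusted p = 1.70e-08). The call in line 2 was lost with the complementary strand only (25.3 points). At 1277484 the counts were 46 of 123 (37.4%), 101 of 105 (96.2%) and 61 of 98 (62.2%). That CpG rose in line 1 (adjusted p = 1.50e-19, Fisher's exact test), while in line 2 the difference of 24.8 points passed the p threshold (adjusted p = 0.0366) and stayed just under the required size. At 1277525 the levels were 33.3%, 61.4% and 48.4%, a rise in line 1 (adjusted p = 0.000688, Fisher's exact test) and no call in line 2 (adjusted p = 0.429). A neighbour had nearly equal levels in all libraries: 1277530, 5 bases from the last, stood at 61.1% in parental cells, 60.9% in line 1 and 63.1% in line 2. At 1277564 line 1 was the lowest library instead, at 26.1% against 42.7% in parental cells and 52.7% in line 2, and was called lower than line 2 (adjusted p = 0.00976, Fisher's exact test).

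**Figure D4:**
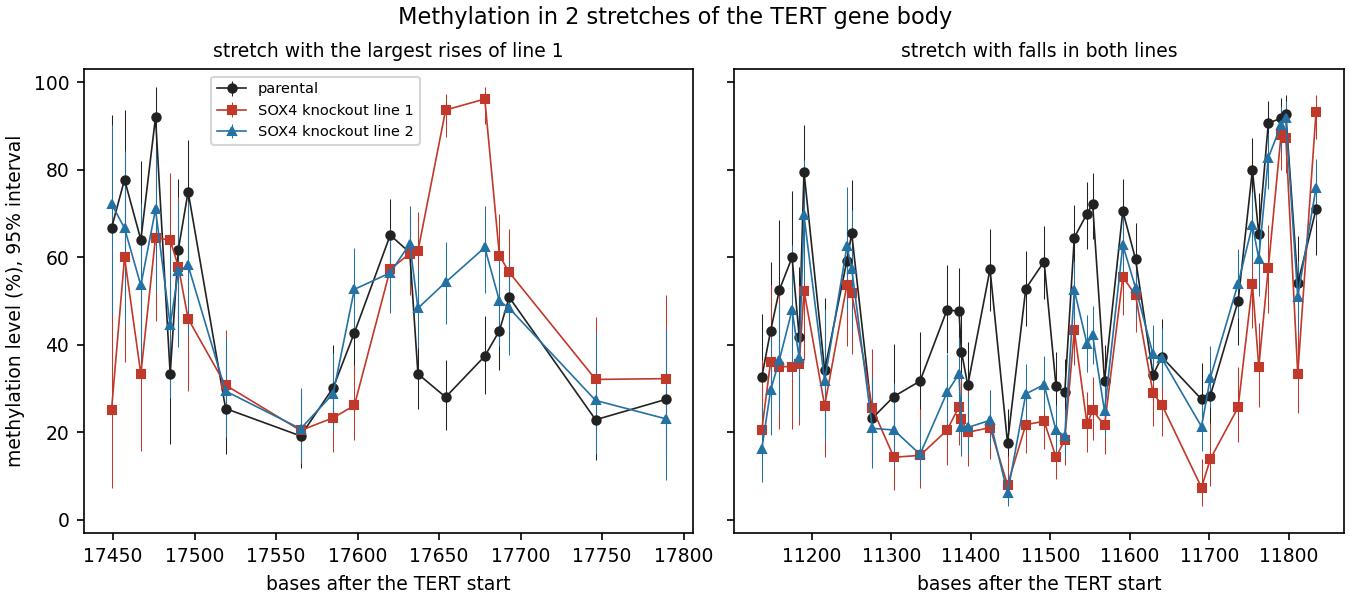
Methylation level in percent with exact 95% counting intervals (y axis) of single CpGs against the distance in bases after the TERT start (x axis) in 2 stretches of the gene body. In the left panel line 1 rises to 93.7 and 96.2% at neighbouring CpGs where parental cells are at 28.0 and 37.4%, and in the right panel both knockout lines lie below parental cells between 11424 and 11553 bases.

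The other CpGs that rose in line 1 were 1285430, 1290630 and 1294058, from 7.69% to 53.8%, from 54.7% to 85.3% and from 58.1% to 93.3%, and line 2 lay at 24.3%, 71.8% and 62.0% with no call. The call at 1285430 was lost at an adjusted p limit of 0.01, and that at 1294058 was lost there, after thinning and on the complementary strand only. By the ranking over both lines, the body CpG with the largest rise in value was 1285488, with 0 of 16 parental reads methylated, 3 of 11 in line 1 and 5 of 11 in line 2, which did not pass the test (adjusted p = 0.479 and 0.248, Fisher's exact test). The largest drop was at 1292091, with 15 of 22 parental reads methylated (68.2%), 2 of 20 in line 1 (10%) and 3 of 13 in line 2 (23.1%). That fall passed in line 1 (adjusted p = 0.00532, Fisher's exact test), though not after thinning, and not in line 2 (adjusted p = 0.423). Near the start, 1294278 (884 bases into the gene) fell in line 1, from 18 of 18 reads to 11 of 22, with 17 of 26 in line 2 (adjusted p = 0.00994 in line 1 and 0.257 in line 2, Fisher's exact test). That call too was lost after thinning.

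**Figure D5:**
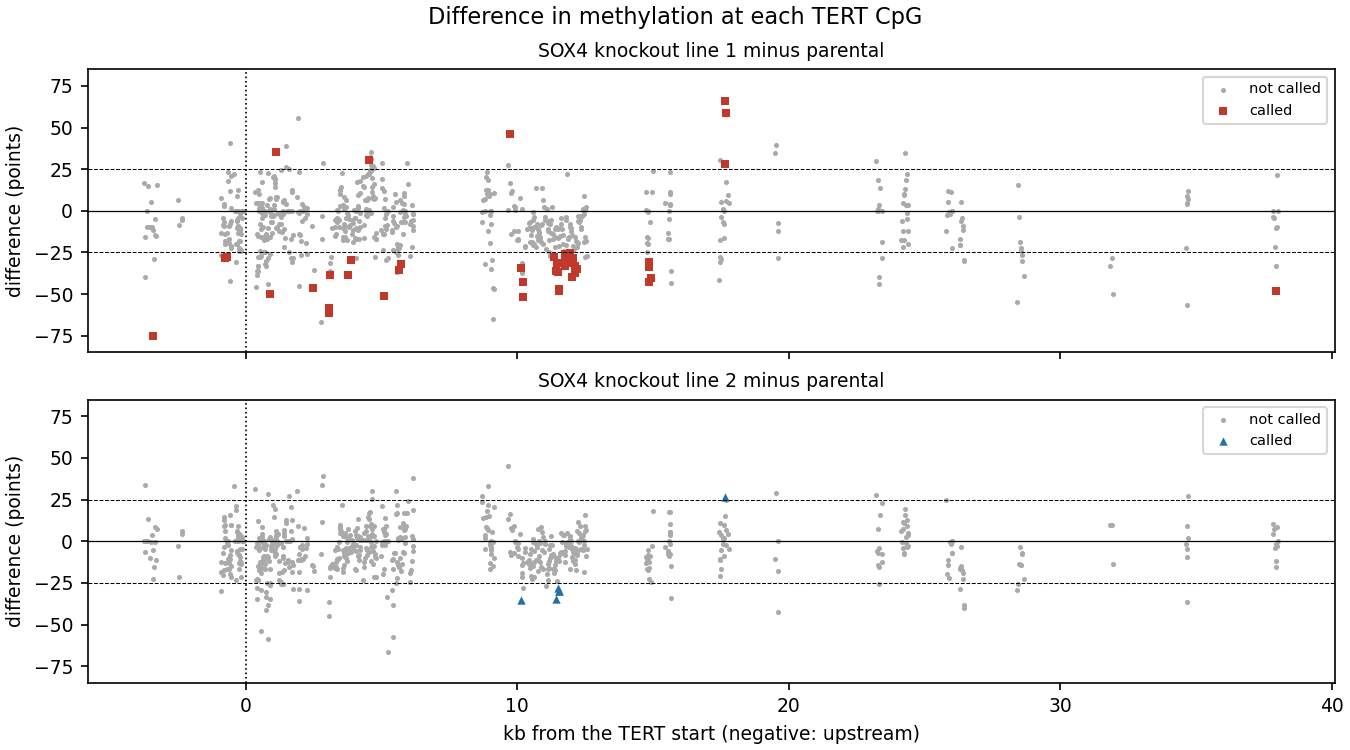
Difference in methylation from parental cells in percentage points (y axis) at each TERT CpG against the distance from the start in kilobases (x axis, negative upstream), for line 1 (top) and line 2 (bottom). Coloured symbols are called CpGs and dashed lines the 25-point limit. Line 1 has 37 calls below 0 and 6 above, and line 2 has 5 below and 1 above.

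Beyond the upstream region the 20 CpGs averaged 46.9% in parental cells, 37.2% in line 1 and 45.9% in line 2. The difference from parental was -9.71 points in line 1 and -0.938 in line 2. By pooled reads the levels were 44.5% in parental cells (counting interval 40.7 to 48.4%), 37.3% in line 1 (33.4 to 41.3%) and 47.9% in line 2 (44.3 to 51.5%). Line 2 was thus below parental cells by the mean over CpGs and above them by pooled reads. The parental interval overlapped that of each knockout line. The CpGs split into a highly methylated group from 1297489 to 1297646 (4 CpGs, 81.9%, 79.0% and 78.5%) and a lower group from 1298429 to 1298892 (16 CpGs, 38.1%, 26.7% and 37.8%). One CpG of the second group, 1298570, 3408 bases upstream of the start, showed the widest gap of all TERT CpGs. There 33 of 38 parental reads (86.8%), 5 of 42 reads of line 1 (11.9%) and 27 of 42 reads of line 2 (64.3%) were methylated. Line 1 was called lower than parental cells (adjusted p = 2.28e-09, Fisher's exact test) and lower than line 2 (adjusted p = 0.000462), and line 2 against parental cells did not pass the test (adjusted p = 0.518). The CpG 4 bases away, at 1298574, stayed high, with 37 of 40, 34 of 42 and 35 of 40 reads methylated.

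Fixed windows of 1 kb with at least 5 CpGs place TERT among the other loci captured. Of 24 TERT windows, 1 differed by at least 25 points between line 1 and parental cells, while 4.97% of all 140947 windows did. It was 1292001 to 1293000 in the gene body, at 63.6% in parental cells, 38.5% in line 1 and 54.6% in line 2. No TERT window passed that size in line 2 or between the lines, where 0.922% and 1.15% of all windows did. The median window difference at TERT was -6.52 points in line 1 and -3.04 in line 2, against -2.06 and -1.11 over all windows. The windows were not matched for level, and those without methylation in parental cells cannot fall. The window holding the measured promoter CpGs, 1295001 to 1296000, had 63 CpGs and mean levels of 19.1%, 11.3% and 16.6%. Among 33146 windows with 20 or more CpGs it stood above 56.2% of them in parental cells, 52.9% in line 1 and 55.8% in line 2. Only 20.6%, 22.3% and 21.5% of such dense windows lay between 10 and 50%, while 49.7%, 51.7% and 50.7% lay below 10%. The next window into the gene, 1294001 to 1295000, had 82 CpGs at 76.0%, 69.2% and 67.1% and stood above 78.7 to 80.6% of the dense windows.

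The promoters of the proteins that work with TERT were compared as a list chosen by function, which is not complete. Of 11 genes listed, 9 had a RefSeq promoter sequence, and all 13 of their sequences were placed by CpG spacing, while TERC and TERF2 are named only. Telomerase holoenzyme genes were DKC1 (dyskerin, which binds the telomerase RNA), NOP10, NHP2 and GAR1 (its partners in the ribonucleoprotein) and WRAP53 (which brings telomerase to Cajal bodies). Their promoter means ran from 0 to 6.14% in parental cells, 0 to 7.08% in line 1 and 0 to 1.15% in line 2. DKC1 was the highest of them in parental cells and line 1, at 6.14% and 7.08%, and stood at 0% in line 2, where WRAP53 had the highest mean. The DKC1 levels rest on median depths of only 14, 11 and 18 reads in parental cells, line 1 and line 2. Shelterin genes, whose proteins cap telomeres, were TERF2IP, TINF2, POT1 and ACD (TERF1 was not on the list). Their promoter means ran from 0 to 0.379% in parental cells, 0 to 5.63% in line 1 and 0 to 0.885% in line 2, with POT1 at 0.194%, 5.63% and 0.0928%. In line 1, POT1 had a median depth of 27 reads and no CpG above 11.1%. Of 263 distinct CpGs in these promoters, 0 were called by Fisher's exact test in any comparison, and 1, 2 and 1 had an unadjusted p under 0.05 in line 1 against parental, line 2 against parental and line 1 against line 2. Over the whole series 4.13%, 0.603% and 0.972% of CpGs were called in either direction. An unadjusted p under 0.05 was met by 11.3%, 6.68% and 7.26% of them. No CpG of these promoters exceeded 14.8% in parental cells, so none could be called lower by 25 points. Only rises from parental cells could be called, and over the series these were 0.484% in line 1 and 0.0628% in line 2. The 20 CpGs of the TERT promoter, at 18.0%, 7.47% and 11.8%, stood above the means of these promoters in every library, in line 1 by a narrow margin over DKC1 at 7.08%. The TERT mean rests on CpGs at least 106 bases before the start, with the 14 nearest to the start unread, whereas most of the other promoters were read along their whole length.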

How the data were processed

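Per the labels, genomic DNA of Hep3B cells was sheared, captured with the TruSeq Methyl Capture EPIC probes, bisulfite-treated, amplified by PCR and sequenced. The aligner, methylation caller, filters and treatment of PCR duplicates are not given in the sources used here, and the submitters' processing notes name GRCh37 and hg19. The deposited files give read counts per CpG cytosine and strand (total, in CpG context and methylated), not normalized, and a methylation level as a fraction, which equalled methylated over context reads.

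Here the strands were summed, CpGs with at least 5 context reads in all 3 libraries were kept, and region levels were means over CpGs, with pooled reads and exact Clopper-Pearson 95% intervals beside them. Methylated reads were compared between pairs of libraries with Fisher's exact test (2-sided), Benjamini-Hochberg adjusted over 2744301 CpGs, and called at an adjusted p under 0.05 and 25 percentage points. The test was checked on simulated data. Region levels carry no test. Where a count is 0, the limit given is 3 reads over the total. RefSeq promoters (GRCh38.p14) were placed by matching the spacing of their CpGs to positions in the files, since no GRCh37 annotation was used. By that match the RefSeq start of TERT differs from the start used here.

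CpGs named by rule were the nearest on each side of the start, the largest rise and fall of both lines in each region among CpGs with 10 or more reads, the called CpGs of the core promoter and upstream region, and the crossings of 50% in parental cells. The region, lists and tests were chosen with earlier results of these data known. Alternatives were the read minimum (1, 10 or 20), pooled reads, each strand alone, regions set by distance, the size (10 or 50 points) and adjusted p (0.01) of calls, thinning to equal depth, autosomes only, and leaving out each line. Tools were scipy 1.17.1, numba 0.67.0, pandas 2.3.3, numpy 2.4.6 and matplotlib 3.10.9 under Python 3.11.15.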

Additional observations from a re-analysis of the deposited data

How the results depend on the processing

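No paired analysis was possible because parental cells have 1 library. Of 93 alternative values for differences between libraries or regions, 0 had the opposite sign and 17 moved by more than the reference spread. They covered the core promoter, upstream region and gene body, and not the CpGs beyond. Some signs could not turn while the knockout lines had no methylated core read. Core differences could then not be positive, nor upstream minus core negative in those lines. The spread of the core knockout mean was 0, so any change in it counted as moved. In the core promoter, line 2 minus parental was -4.35 points with at least 10 reads (1 CpG left) and -5.11 with regions set by distance from the start (11 CpGs), and the knockout mean minus parental was -0.621 with at least 1 read, -4.35 with at least 10, -0.980 by pooled reads and -6.16 by distance. In the gene body, line 1 minus parental was -11.1 on the forward strand only, and line 2 minus parental was -3.95 by pooled reads and -3.15 on the forward strand. Upstream minus core was 15.7 (at least 10 reads) and 12.7 (by distance) in parental cells and 14.5 (by distance) in line 2. Upstream minus body was -30.0 with at least 20 reads and -27.7 by pooled reads in parental cells, -29.9 by pooled reads in line 1, and -30.1 and -27.7 in line 2. With regions set by distance, the core promoter level itself was 8.82% in parental cells, 1.60% in line 1 and 3.70% in line 2. Those 11 CpGs included the 6 from 152 to 193 bases before the start, at 15.4%, 2.93% and 6.79% in that order. The core values with at least 10 reads rest on 1295288, which held the only methylated core read. The near-absence of methylation thus holds for the 5 CpGs from 106 to 126 bases before the start, and depends on where the border is drawn. The cause of the other shifts was not tested. The forward strand gave no value for the core promoter or upstream region, and 20 reads left none in the core promoter.

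Leaving out line 1 or line 2 in turn put the knockout mean minus parental between -8.53 and -3.80 points in the upstream region, between -7.13 and -4.78 in the gene body, and at -0.870 in the core promoter both times. At 50 points, 2 TERT CpGs were called higher and 6 lower in line 1, 0 and 0 in line 2, and 0 and 1 for line 1 against line 2. At 10 points, 2 were higher and 9 lower in line 2, and 12 were lower in line 1 than in line 2. Thinned to equal depth, 2 were higher in line 2, and 4 were lower in line 1 than in line 2. On the complementary strand only, 0 were higher and 3 lower in line 2. With at least 20 reads, line 1 against line 2 gave 5 CpGs higher and 11 lower. Shares over the series were not computed at these settings, and the read minimum and strand also changed which CpGs were tested. These counts therefore do not show whether TERT moved apart from the series. The main limits are 1 library per line, the unread CpGs around the start, and 5 to 10 reads per CpG in the core promoter of line 1.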

Other observations

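The correlation of single CpG levels between libraries was higher in the gene body than upstream. As a description across CpGs, which share fragments and are not replicates, Pearson's r between parental cells and line 1 was 0.418 over the 62 upstream CpGs and 0.794 over the 636 body CpGs. Between parental cells and line 2 it was 0.615 and 0.868, and between the knockout lines 0.493 and 0.849. Upstream levels had a narrower spread (parental SD 14.1 against 27.9 in the body) and a lower median depth (24.5 against 33 parental reads). The values of r therefore do not show which region was closer between libraries.

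Over all CpGs of the series the mean level was 44.1% in parental cells, 40.0% in line 1 and 41.9% in line 2, and over the TERT CpGs it was 51.1%, 43.8% and 46.5%. In the sites read too rarely to be compared within the core promoter, at 1295258 and 1295263, no methylated read was seen in any library, with 4 to 18 reads each.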
